A study of Rattus norvegicus with 15 samples.

Results

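The genes described here are those for the cytosolic ribosomal proteins of the rat, the protein part of the ribosomes that translate nuclear-encoded messages. They were chosen by name alone, as protein-coding rows whose symbol has the form of a ribosomal protein of the small subunit (Rps, with Rpsa), of the large subunit (Rpl) or of its acidic stalk (Rplp). This gave 81 of the 11574 genes in the table, with 75 different symbols, of which 34 rows were small-subunit and 47 large-subunit or stalk genes. No expression value entered this rule, but it was set with earlier results of these data known.

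The cells were H9c2, a single myoblast line from rat heart ventricle that fuses into muscle-like myotubes when serum is lowered. Gene-level read counts came from 15 cultures, with 3 biological replicates in each of 5 groups. T0 was collected 24 h after seeding. The T7-RA and T14-RA groups were collected on days 7 and 14, in serum lowered from 10% to 1% once the cells had attached, and the sources count these days both from seeding and as time in low serum. The groups T7+RA and T14+RA were kept in the same way with all-trans retinoic acid (RA), dissolved in DMSO, added daily at 1 µM. All cultures carried the wild-type genotype label, and whether the cultures without RA received DMSO was not given in the sources used here. Culture time and lowered serum cannot be told apart, because every culture of day 7 or 14 was in low serum. One established line stood for the cell type, so the replicates are cultures, not animals.

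A cytosolic ribosome holds a fixed set of ribosomal proteins, nearly all in a single copy, around its ribosomal RNAs, so cells make the proteins in matched amounts and degrade unassembled ones. Their messages begin with a run of pyrimidines at the cap, the 5′ terminal oligopyrimidine or TOP motif, through which mTORC1 and Larp1 set how well they are translated. Growing cells spend much of their transcription on ribosomes, and muscle cells leave the cell cycle as they differentiate. A few ribosomal proteins also have paralogues, such as Rpl22l1 for Rpl22, that can take their place.

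The members' start sites are shown first because the pyrimidine run described above can be looked for in their sequence. Of the 81 rows, 68 lay on the chromosome of the RefSeq gene with their symbol, and 53 of these had a start-site window in the RefSeq table of build GRCr8. Each line gives 30 bases of the gene's strand, 15 before and 15 from the annotated start, with unbroken runs of at least 8 C or T in capitals. All genes called at day 14 below that had a window are shown (Rps2 to Rpl22l1), with Rps27l added as a paralogue.
Rps2, chr10:14251833-14251862, plus strand: CCTCTTCTTTTTCTTCgggaaaacacgtga
Rpl19, chr10:83519049-83519078, plus strand: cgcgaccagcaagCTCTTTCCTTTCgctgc
Rps15a, chr1:181860270-181860299, minus strand: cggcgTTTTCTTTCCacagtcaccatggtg
Rpl5, chr14:1995211-1995240, minus strand: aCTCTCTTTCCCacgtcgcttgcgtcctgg
Rpl23, chr10:83272170-83272199, minus strand: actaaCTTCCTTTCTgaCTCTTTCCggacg
Rpl21, chr12:13386139-13386168, minus strand: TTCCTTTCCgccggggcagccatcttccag
Rps3a, chr2:173827028-173827057, minus strand: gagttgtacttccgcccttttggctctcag
Rps4x, chrX:71342907-71342936, minus strand: tccagcgcgcgcagcctccgaccctaattt
Rpl22l1, chr2:113683181-113683210, plus strand: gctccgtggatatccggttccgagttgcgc
Rps27l, chr8:76443643-76443672, plus strand: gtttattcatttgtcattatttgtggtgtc
A run of this kind was present in 34 of the 53 windows of ribosomal protein genes (64.2%), against 3831 of all 33469 windows in the table (11.4%). Among the 8 windows of members called higher at day 14, 5 held such a run (62.5%). Rps2 had the longest run of the genes printed, 16 bases, while the longest run was 7 bases for Rps3a, 5 for Rps4x, 4 for Rpl22l1 and 3 for Rps27l. The runs of Rps15a, Rpl5 and Rpl21, and all but the last base of that of Rps2, lie before the annotated start and so outside the message as annotated. A match of letters is a description of these windows and not a measured translation or transcription start. Rpl30 and Rpl23a had no window.

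The table held a row for 70 of the 79 cytosolic ribosomal proteins looked for by name. Among the symbols without a member row were Rps6, Rps14, Rps19, Rps26, Rpl22, Rpl38, Rplp2 and Fau. Outside the choice, 58 rows were described as ribosomal proteins, among them LOC108352650, described as ribosomal protein S29, with 3460 counts over all libraries. Together these 58 rows held 28974 counts against 278530 for the 81 members. Of the members, 13 rows lay on another chromosome than the RefSeq gene of their symbol. Ribosomal protein genes have many near-identical copies, and how reads that match several copies were counted is not given in the sources used here, so a row's level is uncertain wherever a copy could take its reads.

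Library totals were 508397 to 1030820 counts, and 70 members had at least 10 counts in every library. For these genes T0 replicates 1 and 3 lay far below the other libraries, and T0 replicate 2 was the highest, close above the rest. The median deviation of the 81 members from their own mean log2 level was 0.29 in T0 replicate 2, but −0.35 in T0 replicate 1 and −0.51 in T0 replicate 3, while the other 12 libraries lay between −0.10 and 0.27. The median of 21 other short genes (transcripts to 600 bases, at least 1500 counts) moved in the same way, at 0.14 in T0 replicate 2 against −0.38 and −0.45 in the other 2 T0 cultures. For 815 genes with transcripts over 2500 bases the T0 values were −0.04 in replicate 2 and 0.13 and 0.15 in the others. Members were short, with a median transcript of 636 bases by the table's length column, and the part of transcript length in the results was not tested beyond the offset given below.

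**Figure D1:**
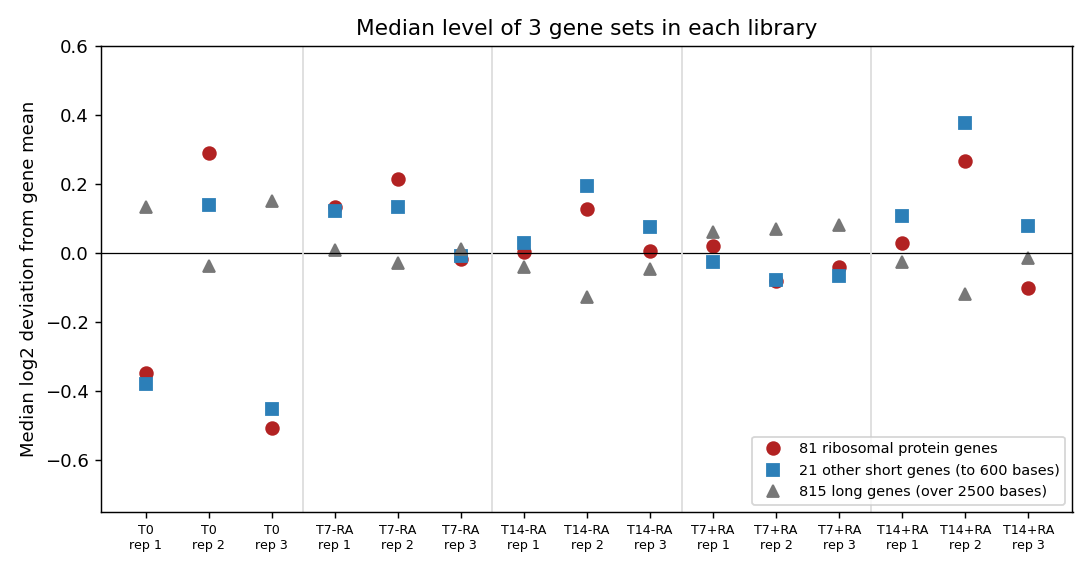
Median log2 deviation from each gene's mean (vertical axis) in the 15 libraries (horizontal axis) for 81 ribosomal protein genes, 21 other short genes and 815 long genes. T0 replicates 1 and 3 sit lowest for the ribosomal protein genes, at −0.35 and −0.51, and T0 replicate 2 is highest at 0.29, with the short genes at −0.38, −0.45 and 0.14 in the same 3 libraries.

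As markers of the cell type, 12 of 14 myoblast and myotube genes had a row, and 11 of these were called higher at day 14 (8.47% of all genes) and 7 lower with RA (3.07% of all genes) by edgeR's quasi-likelihood test at a Benjamini-Hochberg adjusted p under 0.001. Myh3, the embryonic myosin heavy chain, rose by 6.93 ± 0.16 (SE) on the log2 scale at day 14. Of 12 markers of mature or committed cardiomyocytes (such as Myh6, Nppa, Myl2, Tnni3 and Ryr2) only Gata4 had a row. Tnnt2, the cardiac troponin T that early skeletal muscle also makes, was in the first list and rose by 3.66 ± 0.14 at day 14. None of the macrophage and blood markers had a row. Fibroblast and endothelial markers were also listed beforehand and are not reported here.

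Ribosomal protein genes differed widely in level per length. Levels in TPM, counts per base of transcript scaled to one common total in every library, were computed from the counts and the transcript length given in the table. That length is named as a maximum size and was read as the longest transcript of each gene, which the sources used here do not define. Under that reading, TPM understates genes with a long, little-used form. The mean TPM over 15 libraries ran from 10.6 to 4859, with 34 members over 1000, 39 between 100 and 1000, and 8 below 100. Rpl41, a very small basic protein of the large subunit, had the highest level at 4859 ± 719 TPM (SD, n = 15 libraries). Rplp0, the base of the stalk that recruits elongation factors, followed at 4741 ± 410 TPM. These first 2 differed by less than the spread between libraries. The small-subunit protein Rpsa, also known as a laminin receptor, reached 2216 ± 285 TPM. The stalk protein Rplp1 stood at 2167 ± 446 TPM and Rpl35, at the mouth of the exit tunnel, at 2136 ± 375 TPM. The levels of Rpsa, Rplp1 and Rpl35 therefore also overlapped within their spread. The lowest rows were Rpl9 with 10.6 ± 8.72 TPM, Rpl35a with 22.8 ± 16.0 TPM, Rps9 with 26.6 ± 22.4 TPM, the 6q33 row of Rpl32 with 32.3 ± 22.4 TPM and Rps29 with 33.2 ± 26.3 TPM. The Rpl9, Rpl35a, Rpl32 and Rps29 rows among these were on another chromosome than the RefSeq gene of that symbol, so they may be rows of copies, which was not tested, while the Rps9 row was on the same chromosome. The copy described as L9-like (LOC100360449) held 2855 counts against 37 for the Rpl9 row.

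Taken as a sum, ribosomal protein genes took 1.89% to 3.23% of a library's counts. In T0 the share was 2.12%, 3.08% and 1.89% in replicates 1, 2 and 3. In T7-RA it was 2.96%, 3.16% and 2.69%, and in T14-RA 2.68%, 3.01% and 2.69%. T0 replicate 2 lay above all 3 cultures of T14-RA and the other 2 T0 cultures below them, so the groups overlapped. The T14-RA mean was 0.43 percentage points above T0 (two-sided exact permutation test, p = 0.4, where 3 cultures against 3 cannot give less than 0.1). In T7+RA the share was 2.70%, 2.56% and 2.64%. T7+RA differed from T7-RA by −0.31 points (exact p = 0.2). The T14+RA values were 2.78%, 3.23% and 2.53%, with a mean 0.057 points above T14-RA (exact p = 0.8).

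**Figure D2:**
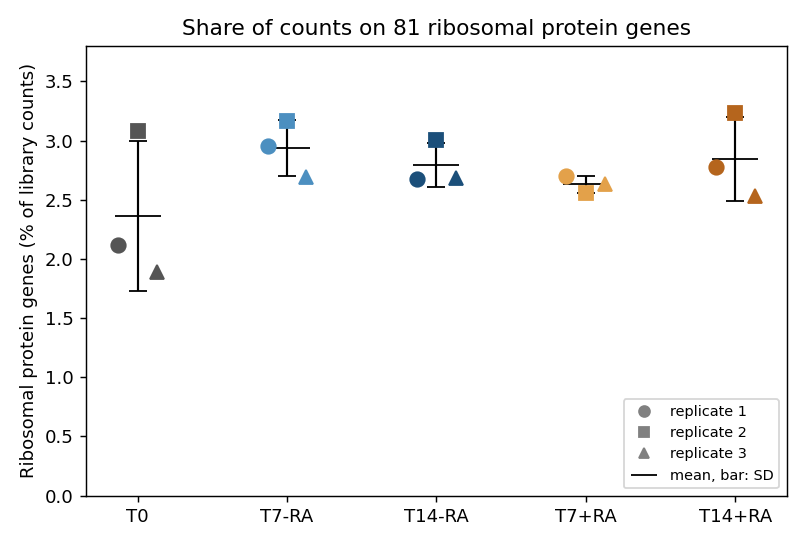
Counts on the 81 ribosomal protein genes as percent of each library's counts (vertical axis), by group (horizontal axis), with each culture as a point and mean ± SD as bars. The 3 T0 cultures span 1.89% to 3.08%, a range that holds the cultures of the other groups except those at 3.16% and 3.23%.

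The balance of the subunits was taken as the ratio of their counts, which no library scaling touches. In T0, large-subunit genes had 1.63, 1.58 and 1.73 times the counts of small-subunit genes. In T14-RA the ratio was 1.76, 1.79 and 1.81, and the lowest of these exceeded the highest T0 ratio (1.65 ± 0.079 against 1.79 ± 0.024, SD, n = 3, exact permutation p = 0.1, the smallest this design allows). Rps2, a small-subunit gene described below, fell from a mean of 2.75% of the members' counts in T0 to 1.45% in T14-RA. The ratio without Rps2 was not computed, so a shift is not shown for the subunits apart from this gene. The ratios of T7-RA, from 1.68 to 1.73, overlapped those of T0. With RA the ratio was 0.039 lower at day 7 (exact p = 0.2) and 0.040 lower at day 14 (exact p = 0.3). T14+RA values ran from 1.71 to 1.79.

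To ask how single genes changed with culture time and with RA, an additive model with terms for day 7 (T7), day 14 (T14) and RA was fitted to all 11574 genes with edgeR's quasi-likelihood test, and a gene was called at an adjusted p under 0.001. At day 7, 6 of the 81 members were called, 5 higher and 1 lower. Of all genes 8.73% were called for this term (4.29% higher), and the members' 7.41% was close to that. At day 14, 12 members were called, 11 higher and 1 lower, against 17.3% of all genes (8.47% higher), so that 14.8% of the members were called. Among all genes 4.44% were lower at day 7 and 8.85% at day 14. With the threshold at 0.05, 20 members passed at day 7 (23.1% of all genes) and 29 at day 14 (35.4% of all genes). The median log2 change of the members was 0.23 at day 7 and 0.24 at day 14, against 0.02 and 0.05 for all genes, and 62 of the 81 lay above 0 for each term. These medians and most of the calls rested on T0 replicates 1 and 3. Without T0 replicate 1 or without T0 replicate 3, 5 members were called at day 14, in each case Rpl30, Rpl22l1, Rpl19, Rps15a and Rps2. Without T0 replicate 2, 29 were called and the median rose to 0.54. With only T0 replicate 2 left in T0, 5 were called, 1 higher and 4 lower, and the median turned to −0.22. An offset that follows transcript length in each library gave 10 calls, 4 higher and 6 lower, of which 5 were shared with the fit without it, and a median of 0.01. Day 7 behaved alike, with 3 calls without T0 replicate 3, 21 without T0 replicate 2, 3 with T0 replicate 2 alone and a median of −0.19 there.

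**Figure D3:**
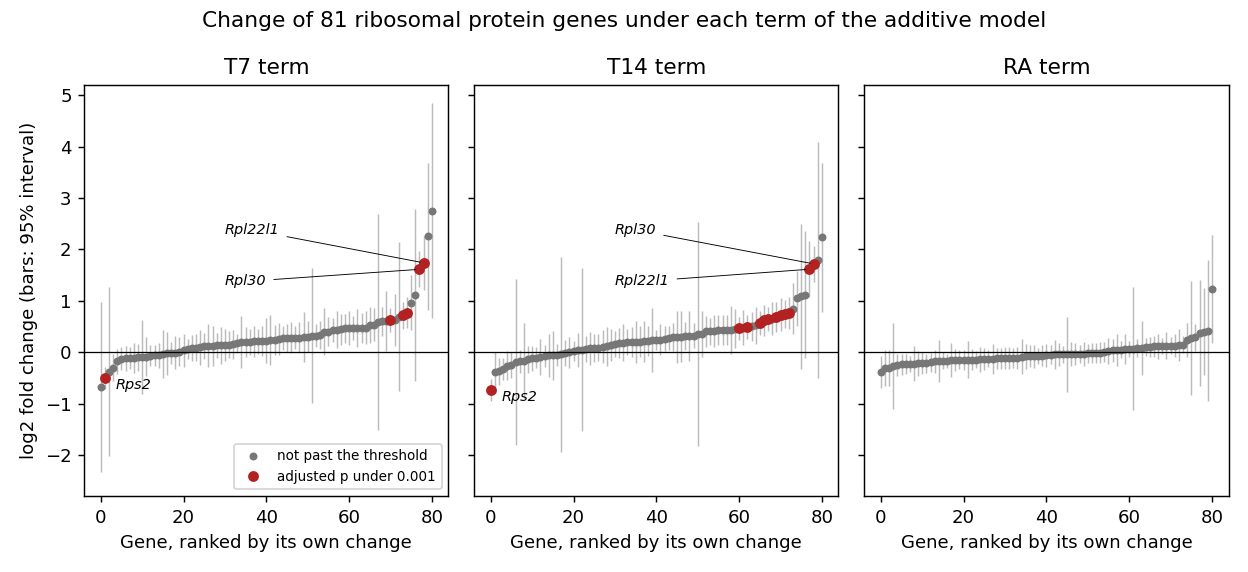
The log2 fold change of each of the 81 ribosomal protein genes (vertical axis, bars 95% interval), ranked within each panel (horizontal axis), for the T7, T14 and RA terms. Red points are the 6 members called for T7 and the 12 called for T14, with Rps2 the one red point below 0, and the RA panel has no red point.

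**Figure D4:**
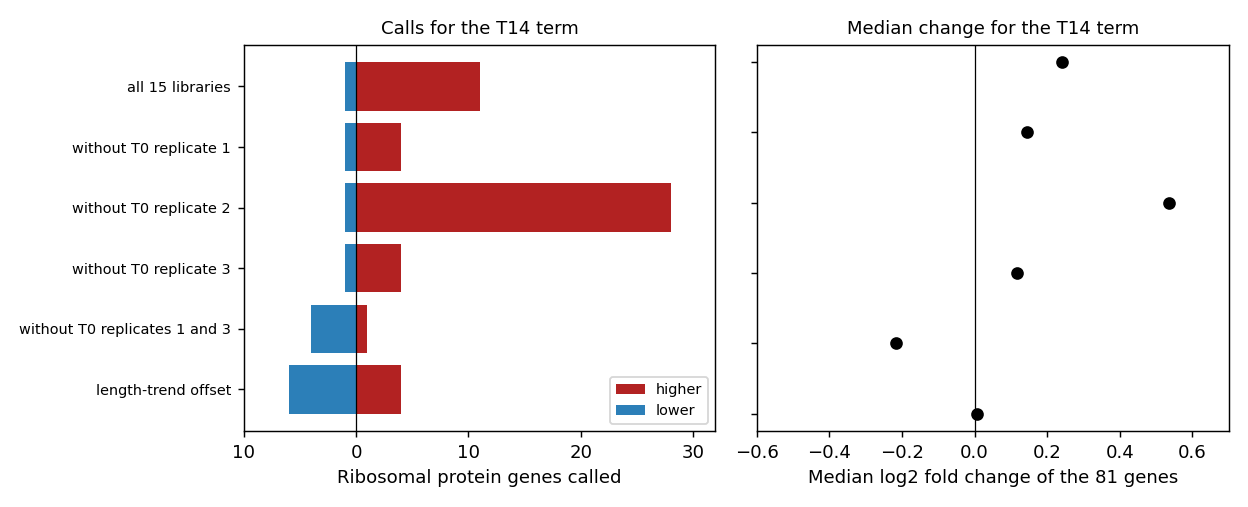
Number of ribosomal protein genes called for the T14 term (left, higher to the right and lower to the left of 0) and their median log2 fold change (right), for all libraries, with T0 libraries left out, and with a length-trend offset. The count runs from 5 to 29 and the median from −0.22 to 0.54.

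Rpl30 and Rps2 were the members called at day 14 under every alternative fit. Rpl30 (ENSRNOG00000005975, 7q22) is a large-subunit protein at the interface between the subunits. Its level in CPM, the counts relative to the TMM-scaled library total, was 71.7, 93.8 and 31.4 in T0. In T7-RA it was 203, 226 and 221 CPM. In T14-RA it was 195, 248 and 190 CPM. Every culture of day 7 or 14 lay above every T0 culture, by a wide gap. T7+RA stood at 161, 192 and 170 CPM and T14+RA at 227, 217 and 179 CPM. The fitted log2 change was 1.61 ± 0.18 (SE) at day 7 (adjusted p = 9.1e-10) and 1.72 ± 0.18 at day 14 (adjusted p = 6.5e-11). It was called in every fit that left out 1 library, with the day 14 change between 1.45 and 2.01. It was called also with T0 replicate 2 as the only T0 library (1.24, adjusted p = 1.7e-05) and with the length offset (1.28). The row described as L30-like (LOC100362027, 10q22), which could share reads with it, changed by 0.44 ± 0.15 at day 14 (adjusted p = 0.016), not past the threshold.

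Rpl22l1 (ENSRNOG00000011817, 2q24), the paralogue of Rpl22, rose by a like amount from a lower level. T0 cultures had 16.6, 22.5 and 12.6 CPM. T7-RA cultures had 68.0, 57.8 and 56.6 CPM. T14-RA cultures had 51.7, 51.4 and 47.4 CPM. The groups did not overlap, and all 12 cultures of day 7 or 14 were above the highest T0 culture. With RA the values were 44.2, 29.5 and 53.1 CPM at day 7 and 38.6, 50.3 and 43.5 CPM at day 14. The log2 change was 1.74 ± 0.27 at day 7 (edgeR adjusted p = 1.1e-06) and 1.62 ± 0.28 at day 14 (adjusted p = 3.3e-06), and the call was kept in all 15 fits without 1 library. With T0 replicate 2 alone in T0 the day 14 change was 1.24 and not past the threshold (adjusted p = 0.016). For RA it was −0.39 ± 0.16 (adjusted p = 0.11). Its parent gene Rpl22 had no member row, so the ratio of the pair could not be formed.

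Rps2 (ENSRNOG00000014179, 10q12), a small-subunit protein near the messenger entry channel, was the one member called lower. T0 cultures had 637, 803 and 579 CPM. T7-RA cultures had 486, 534 and 449 CPM. T14-RA cultures had 366, 413 and 406 CPM. Each step was free of overlap, with all T7-RA cultures below T0 and all T14-RA cultures below T7-RA. With RA the level was 537, 501 and 509 CPM at day 7 and 445, 517 and 421 CPM at day 14. Rps2 fell by 0.50 ± 0.11 on the log2 scale at day 7 (adjusted p = 0.00031) and by 0.73 ± 0.11 at day 14 (adjusted p = 1.5e-07, edgeR). At day 14 the call held in all 15 fits without 1 library, with the length offset (−0.92) and with T0 replicate 2 as the only T0 library (−0.98). At day 7 it was lost in 4 of the 15, and without T0 replicate 2 the change was −0.35 (adjusted p = 0.017). Measured against the other ribosomal protein genes, and so free of any library scaling, Rps2 made up 2.84%, 2.52% and 2.88% of the members' counts in T0. In T14-RA its share was 1.38%, 1.41% and 1.55%, without overlap. As Rps2 was picked out by its change in these libraries, the shares are given as a description only. Between T14-RA and T7-RA alone the change was −0.31 ± 0.11, short of the threshold (adjusted p = 0.069). A row described as an S2 pseudogene (LOC108353446), with 1059 counts against 5126 for Rps2, changed by −0.11 ± 0.22 at day 14 (adjusted p = 0.74).

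Rpl19 and Rps15a rose by smaller amounts. Rpl19 (10q31), a large-subunit protein that forms a bridge to the small subunit, had 302, 313 and 222 CPM in T0 and 392, 464 and 393 CPM in T14-RA. Rps15a (1q35), a small-subunit protein that binds the central domain of its RNA, had 312, 388 and 180 CPM in T0 and 456, 523 and 515 CPM in T14-RA. Neither gene's groups overlapped, although the T0 cultures of Rps15a spread by more than a factor of 2. The T14 change was 0.64 ± 0.12 for Rpl19 (adjusted p = 1.8e-05). For Rps15a it was 0.74 ± 0.14 (adjusted p = 2.3e-05). Both were called in all 15 edgeR fits without 1 library. With T0 replicate 2 alone neither was called, at 0.49 for Rpl19 and 0.36 for Rps15a, and with the length offset Rpl19 was not called (0.37, adjusted p = 0.0017).

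**Figure D5:**
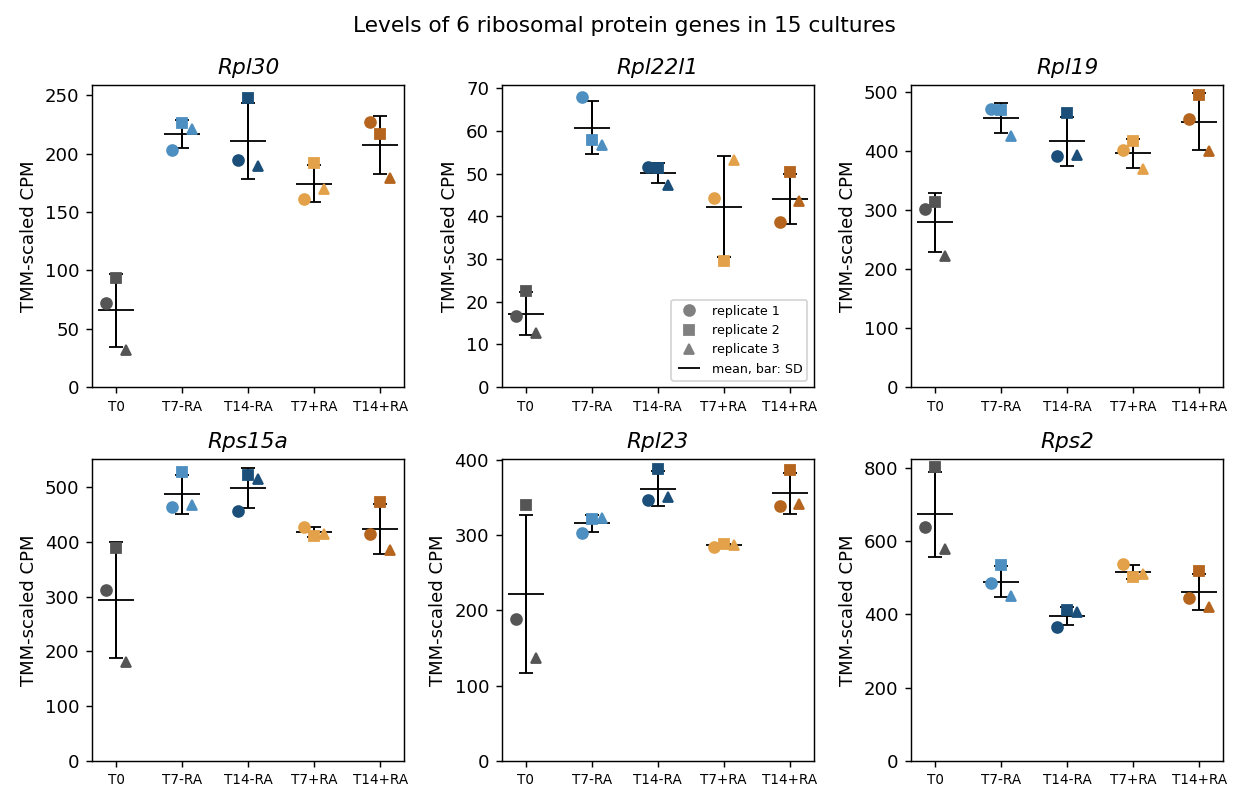
TMM-scaled CPM (vertical axes, from 0) of 6 ribosomal protein genes in the 15 cultures by group, with mean ± SD bars. Rpl30 and Rpl22l1 are low in all 3 T0 cultures, Rps2 is high in them, and in Rpl23 T0 replicate 2, at 340 CPM, lies within the range of the later groups but below all 3 T14-RA cultures.

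The other 7 calls at day 14 depended more on single libraries. Rpl5 (14p22), which with Rpl11 and 5S ribosomal RNA forms a particle that is built into the large subunit and can bind Mdm2, had 390, 493 and 323 CPM in T0 and 535, 652 and 539 CPM in T14-RA. Its change was 0.57 ± 0.12 (adjusted p = 7.1e-05), lost without T0 replicate 1 or T0 replicate 3. Its partner Rpl11 changed by 0.16 ± 0.13 (adjusted p = 0.36). The 12p11 row of Rpl21, a large-subunit protein, had 207, 259 and 124 CPM in T0 and 317, 345 and 317 CPM in T14-RA, without overlap. It changed by 0.76 ± 0.16 (adjusted p = 0.00019), lost without the same libraries, while its Xq12 row changed by −0.06 ± 0.24. At the exit of the tunnel through which new proteins leave, Rpl23a changed by 0.68 ± 0.15, a call lost in 3 of 15 fits. Rpl23, which bridges to the small subunit, had 189, 340 and 136 CPM in T0 against 346, 388 and 351 CPM in T14-RA. The second T0 culture thus came within a few CPM of T14-RA. Its change of 0.73 ± 0.17 (edgeR adjusted p = 0.00087) lost its call in 14 of the 15 fits and ran from 0.52 to 1.16 over them. The small-subunit protein Rps3a (0.47 ± 0.11) lost its call in 11. Rps4x lost it in 7 for its Xq22 row (0.49 ± 0.12) and in 11 for its 4q21 row (0.62 ± 0.15), which is on another chromosome than the RefSeq gene.

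By place in the ribosome, 4 of 30 small-subunit rows were called higher at day 14 and 1 lower, with a median log2 change of 0.16. Of 43 large-subunit rows 6 were called higher, with a median of 0.32. These counts are to be read against 8.47% of all genes called higher and 8.85% lower for this term. The difference between the subunits was not tested over genes. Neither of the 2 stalk genes was called, with 0.03 ± 0.10 for Rplp0 and 0.46 ± 0.19 for Rplp1. Of 7 proteins lining or ending the exit tunnel, 2 were called higher, and of 5 around the messenger channel only Rps2 was called. Of the remaining rows, Rps18l1 changed by 1.05 ± 0.28 (adjusted p = 0.0018).

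Of the 3 paralogues only Rpl22l1 was called. Rps27l (8q24), the paralogue of Rps27 and a known p53 target, had 82.8, 163 and 107 CPM in T0 and 121, 145 and 83.0 CPM in T14-RA. These groups overlapped, and the T14 change was 0.11 ± 0.19 (adjusted p = 0.69), a sign that turned without T0 replicate 1. Rps27 itself had 135, 310 and 149 CPM in T0 and 163, 193 and 166 CPM in T14-RA, with a change of −0.06 ± 0.22. Rpl7l1, the paralogue of Rpl7 found in assembling large subunits, changed by −0.39 ± 0.20 (adjusted p = 0.13). Rpl7 changed by 0.28 ± 0.12 (adjusted p = 0.054). None of these 4 was called. Rpl3 and Rpl10 (0.24 ± 0.10 and 0.27 ± 0.12) were present without a row for Rpl3l or Rpl10l, and Rpl26 (0.50 ± 0.15, adjusted p = 0.0057) without one for Rpl26l1. The Rpl39 row, on 14p11, held 1, 2 and 0 counts in the T0 libraries and 10, 4 and 5 in those of T14-RA, too few to give a fold. A row described as ribosomal protein L39 (LOC103693375, Xq35), outside the choice, rose by 0.82 ± 0.18 (adjusted p = 0.00022).

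Set directly against T0, T7-RA gave 7 called members (8.78% of all genes were called), and T14-RA gave 6 (15.7% of all genes). These comparisons share the T0 cultures. Both lists held Rpl30, Rpl22l1, Rpl19, Rpl5 and Rps15a as higher and Rps2 as lower. In T14-RA against T0, 17 members lay above T0 without overlap and 2 below, Rps2 and Rpsa. Over all genes 21.5% lay above and 19.1% below. From T7-RA to T14-RA no member was called (2.95% of all genes were). At an adjusted p under 0.05, 7.79% of all genes passed, and of the members only Rpsa did, with −0.33 ± 0.11 (adjusted p = 0.044).

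RA changed no member past the threshold, whereas 6.39% of all genes were called for the RA term with edgeR. At an unadjusted p under 0.05 there were 10 members (12.3%), against 24.8% of all genes. At an adjusted p under 0.001 limma-voom and DESeq2 also called none. The median RA change of the members was −0.06. Among the 57 members with at least 1500 counts the RA changes ran from −0.30 to 0.15, and for 55 of them the 95% interval lay within 0.5 log2 units of 0 in either direction. At an adjusted p under 0.05, 14.7% of all genes passed and 1 member did, Rpl6, a large-subunit protein that reaches the solvent side. Rpl6 had 617, 691 and 623 CPM in T7-RA and 535, 505 and 511 CPM in T7+RA. These cultures did not overlap. In T14-RA it had 569, 641 and 583 CPM against 531, 629 and 484 CPM in T14+RA, which did. The RA term for Rpl6 was −0.22 ± 0.08 (adjusted p = 0.047). With 1 library left out it ran from −0.27 to −0.19, and its edgeR adjusted p from 0.014 to 0.14. For RA at day 7 alone the adjusted p of Rpl6 reached 0.23, so neither pass at 0.05 was kept in every fit.

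Split by day, RA gave no called member at day 7 (3.17% of all genes were called, and 7.41% at 0.05, where again only Rpl6 passed among the members) and none at day 14 (4.81%). At unadjusted p under 0.05 among the 57 members with many counts, 12 were lower and none higher at day 7. Of all 1428 genes with as many counts 14.5% were lower and 21.4% higher in that test. At day 14, 3 of the 57 members were higher and none lower, against 26.1% higher and 16.5% lower. At day 7 the members leaned one way. Of the 81, 67 had a change below 0, with a median of −0.15 against −0.02 for all genes, and 28 (among them Rpl30, Rpl22l1, Rpl19, Rpl5 and Rpl6) had all T7+RA cultures below all T7-RA cultures, against 12.6% of all genes. The 21 short genes that are no members moved with them, at 0.12, 0.13 and −0.01 in T7-RA and −0.02, −0.08 and −0.07 in T7+RA, and with the length offset the members' median was −0.07. At day 14 the median was 0.03 (−0.04 to 0.11 with 1 library left out), and 5 members lay above T14-RA without overlap (13.4% of all genes) and 1 below (13.9%). Rps2 was among the 5, and its share of the members' counts was 1.93% to 2.00% in T7+RA against 1.67% to 1.73% in T7-RA, and 1.60% to 1.68% in T14+RA against 1.38% to 1.55% in T14-RA, while its RA term was 0.15 ± 0.08 (edgeR adjusted p = 0.27). The difference of the RA effect between the days was called for no member at 0.001 (0.216% of all genes) or at 0.05 (0.743%). Its 95% intervals reached from −0.67 to 1.00 over the 57 members with many counts, and for 14 of these lay within 0.5 of 0.

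Genes that build the ribosome without being part of it were listed separately. Of 74 listed ribosome biogenesis genes 70 had a row, of which 10 were called lower and none higher, with a median log2 change of −0.39 (edgeR). Here and for the lists that follow, 8.47% of all genes were called higher and 8.85% lower at day 14, and 3.33% higher and 3.07% lower with RA. Only the biogenesis list and those of TOP messages and mitochondrial ribosomal proteins were refitted with T0 libraries left out or with the length offset. Day 14 calls in the other lists that follow come from the fit of all 15 libraries alone. Mybbp1a, a nucleolar regulator of ribosomal RNA synthesis, fell by 1.18 ± 0.12, and Tcof1, the treacle protein of ribosomal RNA transcription, fell by 1.40 ± 0.15. Nucleolin (Ncl) fell by 0.68 ± 0.10 and the nucleolar helicase Ddx21 fell by 0.80 ± 0.13. With T0 replicate 2 as the only T0 library 3 were called lower, with a median of −0.33, without T0 replicate 2 it was 8 with a median of −0.25, and with the length offset 13 with a median of −0.39. With RA none of the 70 was called. Of 19 genes for RNA polymerase I and ribosomal RNA synthesis, 1 was called higher and 2 lower. These were Polr2k, a subunit shared by the RNA polymerases (1.91 ± 0.43), Cd3eap, an RNA polymerase I subunit (−2.04 ± 0.22), and Cavin1, also called the polymerase I release factor and a caveolar coat protein (−0.58 ± 0.09).

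Translation factors and other proteins encoded by TOP messages formed a further list. Of 22 measured, 3 were called higher and 3 lower at day 14, with a median of 0.11, and with T0 replicate 2 as the only T0 library none was higher and 2 were lower, with a median of −0.04. With the length offset 4 were higher and 5 lower, with a median of 0.06. Without T0 replicate 2, 5 were higher and the median was 0.28. Naca, a chaperone at the exit tunnel, rose by 0.82 ± 0.11 and Tpt1 rose by 0.72 ± 0.11. Vim, the intermediate filament vimentin, fell by 1.03 ± 0.09, and Hnrnpa1, an RNA-binding protein, fell by 0.67 ± 0.11. Tpt1 also rose with RA (0.47 ± 0.08, adjusted p = 2.2e-06). Of 32 genes of the mTORC1 pathway 7 were called higher and 3 lower at day 14, among them the mTOR inhibitors Ddit4 (2.19 ± 0.28) and Deptor (1.46 ± 0.20), the translation inhibitor Pdcd4 (1.74 ± 0.24) and the scaffold Eif4g1 (−0.85 ± 0.12). With RA Pdcd4 fell by 0.86 ± 0.15 and the elongation factor kinase Eef2k fell by 0.57 ± 0.12. Among 16 regulators around Myc, the Max partner Mxd4 rose by 2.00 ± 0.18 and Mycn fell by 1.63 ± 0.33 at day 14. Myc itself changed by −0.74 ± 0.32 (adjusted p = 0.06) and Mxd3 by −0.34 ± 0.13 (adjusted p = 0.032).

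Of 5 measured ribosome proteins and partners in a list outside the symbol rule, Rsl24d1, a factor that holds the place of Rpl24 on the assembling large subunit, was called higher at day 14 (0.88 ± 0.22), while the ribosome scaffold Rack1 changed by 0.10 ± 0.11. Of 71 mitochondrial ribosomal protein genes, which encode the ribosome of the organelle, 2 were called higher at day 14, Mrps6 (0.92 ± 0.20) and Mrpl33 (1.38 ± 0.33). Their median was 0.28, close to the members' 0.24, and it too changed sign with T0 replicate 2 as the only T0 library (−0.18), where none was called. With the length offset none was called either and the median was 0.13, and without T0 replicate 2 it was 0.49. Of 21 ribosome quality control and receptor genes 2 were called higher and 4 lower, including the translocon channel Sec61a1 (−1.12 ± 0.11), the ribosome-binding Rrbp1 (−0.78 ± 0.11), Gcn1 (−0.73 ± 0.11) and the kinase Eif2ak4 (1.15 ± 0.15). Of 17 p53 target genes 6 were called higher and 1 lower at day 14 and 5 higher with RA, among them Gadd45a (2.97 ± 0.20 at day 14, 1.42 ± 0.10 with RA) and Ccng1 (1.05 ± 0.12, 0.35 ± 0.08), and the p53 target among the members, Rps27l, did not pass the threshold for T14 or RA. Its RA term was 0.29 ± 0.13 (edgeR adjusted p = 0.15), and RA at day 14 alone gave 0.47 ± 0.18 (adjusted p = 0.098). With 1 library left out the latter ran from 0.29 to 0.63 (edgeR adjusted p from 0.024 to 0.43).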

How the data were processed

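RNA from H9c2 cultures was sequenced as poly(A)-selected, strand-marking libraries. The authors trimmed the reads on Galaxy, mapped them with HISAT2 (build Rnor 6.0 per the submitters' processing notes) and counted them per gene with featureCounts. Tool versions, annotation release, strand setting and the treatment of multiply mapping reads are not given in the sources used here. The authors deposited raw counts for genes whose sum over 15 libraries was above 20 (the smallest is 21).

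Counts were fitted as deposited with edgeR 4.0.16 (R 4.3.3, TMM, robust quasi-likelihood), with the additive formula (T7, T14, RA) that the study used in limma and, for single contrasts, 5 group means, without a replicate block. Benjamini-Hochberg adjustment ran over all 11574 genes and calls used 0.001. SEs are the log2 change over the root of F, and 95% intervals are 1.96 SE. TPM used the deposited length column, read as the longest transcript. The fits were tested on simulated data with a single spread per gene for all libraries, so these did not cover a wider spread within T0. The members' summed share and the subunit ratio were compared by two-sided exact permutation tests, without adjustment. RefSeq windows are of GRCr8.

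Full statistics were due for paralogues, for the 5 called members with the largest change in each direction, and for the 5 highest and 5 lowest by TPM. Other calls were named to account for all of them, and values by culture for Rpl19 and Rpl5 were added for their calls under the alternatives, after these were seen. From other lists, the 4 lowest p for T14 and 2 for RA were eligible. The members and lists were chosen with earlier results of these data known. The labels number the line from H9c2 upwards across samples, which was read as a spreadsheet fill. Replicate numbers were not used as pairs, since not every same-numbered pair correlated above 0.1. Alternatives covered thresholds, scaling, limma-voom 3.58.1, DESeq2 1.42.0, a filter of 10 counts, thinning to 508397 counts, a replicate block and leaving out each library. The length offset and the joint removal of 2 T0 libraries were chosen after seeing the data. With 1 T0 library, that library is assumed to vary like the other groups. Replicates are separate cultures of 1 line, and edgeR's p-values measure the spread between these cultures, taken as a single spread per gene for all groups. The T0 cultures differed more among themselves, with a chi-square per degree of freedom of 2.06 to 3.09 between pairs of replicates. In the other groups it was 1.07 to 2.04, so SEs and p-values of the T7 and T14 terms may be too small.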

Additional observations from a re-analysis of the deposited data

How the results depend on the processing

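Counts of called ribosomal protein genes moved with the threshold and the T0 libraries. At an adjusted p under 0.05, 20 members were called for T7, 29 for T14, and 1 each for RA, RA at day 7 and the second week without RA. With T0 replicates 1 and 3 both left out there were 3 for T7 and 5 for T14, and the median changes turned to −0.19 and −0.22. Leaving out 1 library at a time gave 3 to 21 calls for T7, 5 to 29 for T14 and 0 for each RA contrast and the second week, with medians from 0.10 to 0.49 for T7, from 0.12 to 0.54 for T14 and from −0.11 to −0.02 for RA. The share of counts in T14-RA stayed 0.19 to 0.79 points above T0 with 1 library left out. T0 replicate 2 by itself, at 3.08%, lay above the T14-RA mean of 2.79%. Besides T0 libraries, leaving out T14-RA replicate 2 moved the T14 count to 7. The length-trend offset gave 1 call for the second week, 10 for T14 and medians of 0.07 (T7) and 0.01 (T14). The T14 change of Rps27l turned to −0.14 with the offset, −0.38 without both T0 libraries and −0.11 without T0 replicate 1, within a range of −0.11 to 0.44 over single libraries left out. For shifts other than those made by leaving out libraries or by the threshold, the cause was not tested.

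Replicate numbers were shared by the groups, and over all genes same-numbered cultures correlated at a mean r of 0.032 (5 of 30 pairs over 0.1). Over the 81 members the mean r was 0.093 (20 of 30 pairs over 0.1, from −0.56 to 0.50), against −0.05 for differently numbered cultures (22 of 60 over 0.1). As not every pair exceeded 0.1 in either, the numbers were not taken as pairs, though a rule that asks this of every pair can miss partial pairing. Replicate 2 had the highest share of counts on the members in T0, T7-RA, T14-RA and T14+RA (3.08%, 3.16%, 3.01% and 3.23%), but not in T7+RA. Whether same-numbered cultures were handled together was not tested. A replicate block gave 10 calls for T7 and 17 for T14. Scaling by library size alone moved the median of all genes to 0.13 (T7) and 0.15 (T14). The RA median at day 14, 0.03, ran from −0.04 to 0.11 without 1 library. At library totals from 508397 counts, 11 members had under 10 counts in at least 1 library, and of these only Rpl22l1 was called at day 14.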

Other observations

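Some low ribosomal protein rows varied several-fold between cultures of the same group, and 3 of them were picked out after their values were seen. The Rpl8 row (7q34) had 80 counts in T7-RA replicate 2 against 16 and 14 in the other T7-RA libraries. It had 86 in T14+RA replicate 2 against 20 and 11, and 62 in T7+RA replicate 3 against 19 and 17. In T0 replicate 2 it had 31 counts against 8 and 9, while the T14-RA libraries held 28, 11 and 19. The Rpl7a row (3p13) had 23, 7 and 6 counts in T7-RA and 25, 14 and 0 in T7+RA. The Rps9 row (1q12) had 45, 9 and 6 counts in T7-RA and 34, 47 and 5 in T7+RA. These 3 genes were called for no term, and whether reads were split among copies was not tested.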
